A study of Mus musculus with 19 samples.

Results

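The genes described here are the 7 of the opioid peptide system: the precursors Pdyn, Penk and Pnoc and the receptors Oprk1, Oprm1, Oprd1 and Oprl1. They were taken by gene name, and each matched 1 of the 52636 mouse gene identifiers in the deposited count table. They were followed across single cells of the mouse lateral hypothalamic area (LHA), with a closer look inside neurons that make orexin, the peptide encoded by Hcrt. The cells came from 7 males, 6 to 8 weeks old, that carried Agrp-IRES-Cre x Ai9. In these mice Cre is expressed from the Agrp gene and switches on the red protein tdTomato, whose signal in AGRP axons marked where the LHA lies. Non-fluorescent cell bodies were picked by hand from the dissected tissue and sequenced on 19 plates with Smart-SCRB chemistry, where every well receives a single cell and its own barcode. All mice shared this genotype and there was no treated or control group, so the comparisons are between classes of cells within plates. The labels do not say which plate came from which mouse. P-values therefore measure the spread between plates and may be too small, since several plates can share a mouse.

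Each opioid precursor is a long protein that is cleaved inside secretory granules into short peptides, which are released and act on receptors coupled to inhibitory G proteins. Prodynorphin (Pdyn) yields dynorphins and neoendorphins, which prefer the kappa receptor (Oprk1). Proenkephalin (Penk) yields enkephalins, which act on the delta (Oprd1) and mu (Oprm1) receptors, and prepronociceptin (Pnoc) yields nociceptin, which acts on the nociceptin receptor (Oprl1). Orexin neurons are known to make dynorphin beside orexin and to release both.

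The peptides share a short core. In the GENCODE M21 transcripts a script looked for 4 codons that read tyrosine-glycine-glycine-phenylalanine in frame, and in Pnoc for the same core with phenylalanine in place of the tyrosine. Pdyn, whose coding sequence has 248 codons, held 3 copies, Penk, with 268 codons, held 7, and Pnoc, with 212 codons, held 1. In Penk 6 of the 7 copies were followed by the methionine codon atg and 1 by the leucine codon ctg, whereas the Pdyn copies were followed by a leucine codon. The selected copies below show the difference between the precursors whose levels are compared further on. Capitals mark the 4 core codons and lower case the 6 codons that follow.
Pdyn, dynorphin A, from codon 202: TATGGGGGCTTCctgcggcgcattcgcccc
Pdyn, dynorphin B, from codon 221: TATGGTGGTTTCctgcggcgtcagttcaag
Penk, methionine-enkephalin, from codon 136: TATGGCGGCTTCatgaagaaggatgcagat
Penk, leucine-enkephalin, from codon 231: TATGGGGGCTTCctgaagcgctttgctgag
Pnoc, nociceptin, from codon 141: TTTGGGGGCTTCaccggggcccggaaatca

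In mouse build GRCm38 with the GENCODE M21 annotation, all 7 are protein-coding genes. Pdyn lies at chr2:129686565-129699844 on the minus strand, Penk at chr4:4133531-4138819 on the minus strand and Pnoc at chr14:65400673-65425472 on the minus strand. Oprk1 lies at chr1:5588466-5606131 on the plus strand, Oprm1 at chr10:6758506-7038198 on the plus strand, Oprd1 at chr4:132110726-132144486 on the minus strand and Oprl1 at chr2:181715016-181720985 on the plus strand. Penk overlaps A830012C17Rik on the opposite strand, a gene with 8 counts in all Hcrt wells and 2 in all Gad wells. Oprm1 overlaps Gm10945, which had 0 counts in every class, and Ipcef1 on the opposite strand, which came to 2.42 CPM in Hcrt and 11.3 CPM in Gad wells. Whether counting used strand is not given in the sources used here.

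Of 1612 wells labelled LHA, 1534 had at least 1000 detected genes and were kept. They held 69702601 unique molecular identifier (UMI) counts, with a median of 38519.5 per well and plate totals of 1835641 to 5067927. Wells in which Hcrt made up at least 1% of mouse gene counts are called Hcrt wells (1065 wells, median Hcrt share 13.5%). Wells in which Pmch, the precursor of melanin-concentrating hormone, reached that share are called Pmch wells (68 wells). Wells past neither limit are called Gad wells where Gad1 and Gad2, the enzymes of GABA synthesis, summed to at least 5 UMIs (327 wells), and remaining wells otherwise (71 wells). The 3 wells past both peptide limits were left out. The classes were checked against markers that did not define them. Slc17a6, the glutamate transporter, had a UMI in 88.5% of Hcrt wells and Lhx9, an orexin-neuron transcription factor, in 91.4%. Slc32a1, the GABA transporter, had a UMI in 62.4% of Gad wells, against 2.44% of Hcrt wells, and Slc17a6 in 69.0% of the remaining wells, against 6.73% of Gad wells. The classes were not pure. Gad1 and Gad2 summed to at least 5 UMIs in 155 Hcrt wells (14.6%) too. By marker counts 9 of the 71 remaining wells were not called neurons. Oligodendrocyte markers came to 1324 CPM in the remaining wells, with 2341 of their 2516 UMIs in 1 well. Median depth differed: 45722 UMIs in Hcrt wells, 24486 in Gad wells, 59063 in Pmch wells and 24969 in the remaining wells. Shares of wells with a UMI are therefore also given after each well was thinned to 18000 UMIs, which left 1003 Hcrt, 253 Gad, 67 Pmch and 56 remaining wells and dropped 62, 74, 1 and 15 shallower ones. The background is read from wells without a cell, whose median was 169 UMIs, and from 68 wells labelled qRNA, whose median was 18251 UMIs. The qRNA wells were not blank, with a median of 3574.5 genes. Markers of mural cells, which line blood vessels, came to 845 CPM there, against 1.04 CPM in Hcrt wells. Whether opioid UMIs in qRNA wells came from RNA held by those wells was not tested, so they are not a clean measure of carry-over.

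Levels below are counts-per-million (CPM), the UMIs of a gene scaled by all mouse gene counts, summed over the wells of a class on a plate with at least 3 such wells. Tests of classes used edgeR's quasi-likelihood test on those sums with the plate as a block and Benjamini-Hochberg adjustment over all genes tested, called at an adjusted p under 0.05. The 3 comparisons of Hcrt wells share those wells, and so are not independent. The fitted log2 changes are relative to the typical gene (TMM scaling). With library totals in place of TMM, the median of all genes moved by -0.41 in Hcrt against Gad wells and by -0.51 in Hcrt against remaining wells. With the added ERCC control RNA as the scale it moved by 0.74, 0.77 and -0.55 in Hcrt against Gad, remaining and Pmch wells. The split of all calls moved with it: between Hcrt and Gad wells 2016 genes were called higher and 1596 lower, against 4100 lower of 4929 called with library totals and 6477 higher and 404 lower with ERCC totals. Between Hcrt and remaining wells 474 were higher and 53 lower, against 239 and 98 with RLE size factors, 155 and 235 with library totals and 3905 and 20 with ERCC totals, and between Hcrt and Pmch wells 1361 and 1027, against 448 and 3257 with ERCC totals.

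Pdyn was high in Hcrt wells and low elsewhere. Over the 16 plates with both classes, Pdyn in Hcrt wells had a lowest value of 818, a median of 1064 and a highest of 1260 CPM, against 0, 18.4 and 91.1 CPM in Gad wells. The ranges did not overlap, and Hcrt wells were higher on all 16 plates. The mean was 1070 ± 134 CPM in Hcrt wells and 25.6 ± 25.02 CPM in Gad wells (SD, n = 16 plates), and the fitted log2 change was 5.71 ± 0.27 (SE; adjusted p = 2.38e-11 by edgeR's quasi-likelihood test). Of the 7 genes, 4 passed the filter on low counts in this comparison, and 2 were called higher and 1 lower, against 39.0% of the 9271 genes tested, 21.7% higher and 17.2% lower.

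In the remaining wells, which mostly carry the glutamate transporter, Pdyn was between these classes. On the 10 plates with enough such wells, Hcrt wells had 818, 1120 and 1260 CPM as the lowest, median and highest plate, against 0, 87.7 and 441 CPM in the remaining wells. Again no plate of one class reached the range of the other. The log2 change was 3.95 ± 0.55 (adjusted p = 5.03e-04, edgeR), and 2 of the 4 members tested were called, both higher, against 6.98% of 7554 genes, 6.27% higher and 0.702% lower. The call was lost when at least 5 wells per plate and class were required (log2 change 3.67, adjusted p = 0.0719) and when both peptide limits were set at 0.2% (5.21, adjusted p = 0.0679). Against Pmch wells, Pdyn stood at 933, 1167 and 1260 CPM in Hcrt wells and at 0, 4.25 and 10.5 CPM in Pmch wells over 13 plates, with no overlap. That log2 change was 7.79 ± 0.13 (adjusted p = 3.54e-35, edgeR), with 2 of 4 tested members called, both higher, against 30.6% of 7796 genes, 17.5% higher and 13.2% lower. Gad wells against remaining wells gave a log2 change of -1.89 ± 0.62 for Pdyn, which did not pass the test (adjusted p = 0.250, edgeR). It passed without plate 19 (-2.29, adjusted p = 0.00445) and under 3 other settings. In the order of mean levels, Hcrt, remaining, Gad and Pmch wells, the gap below Hcrt wells exceeded the spread over plates and the gaps between the other classes did not.

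**Figure D1:**
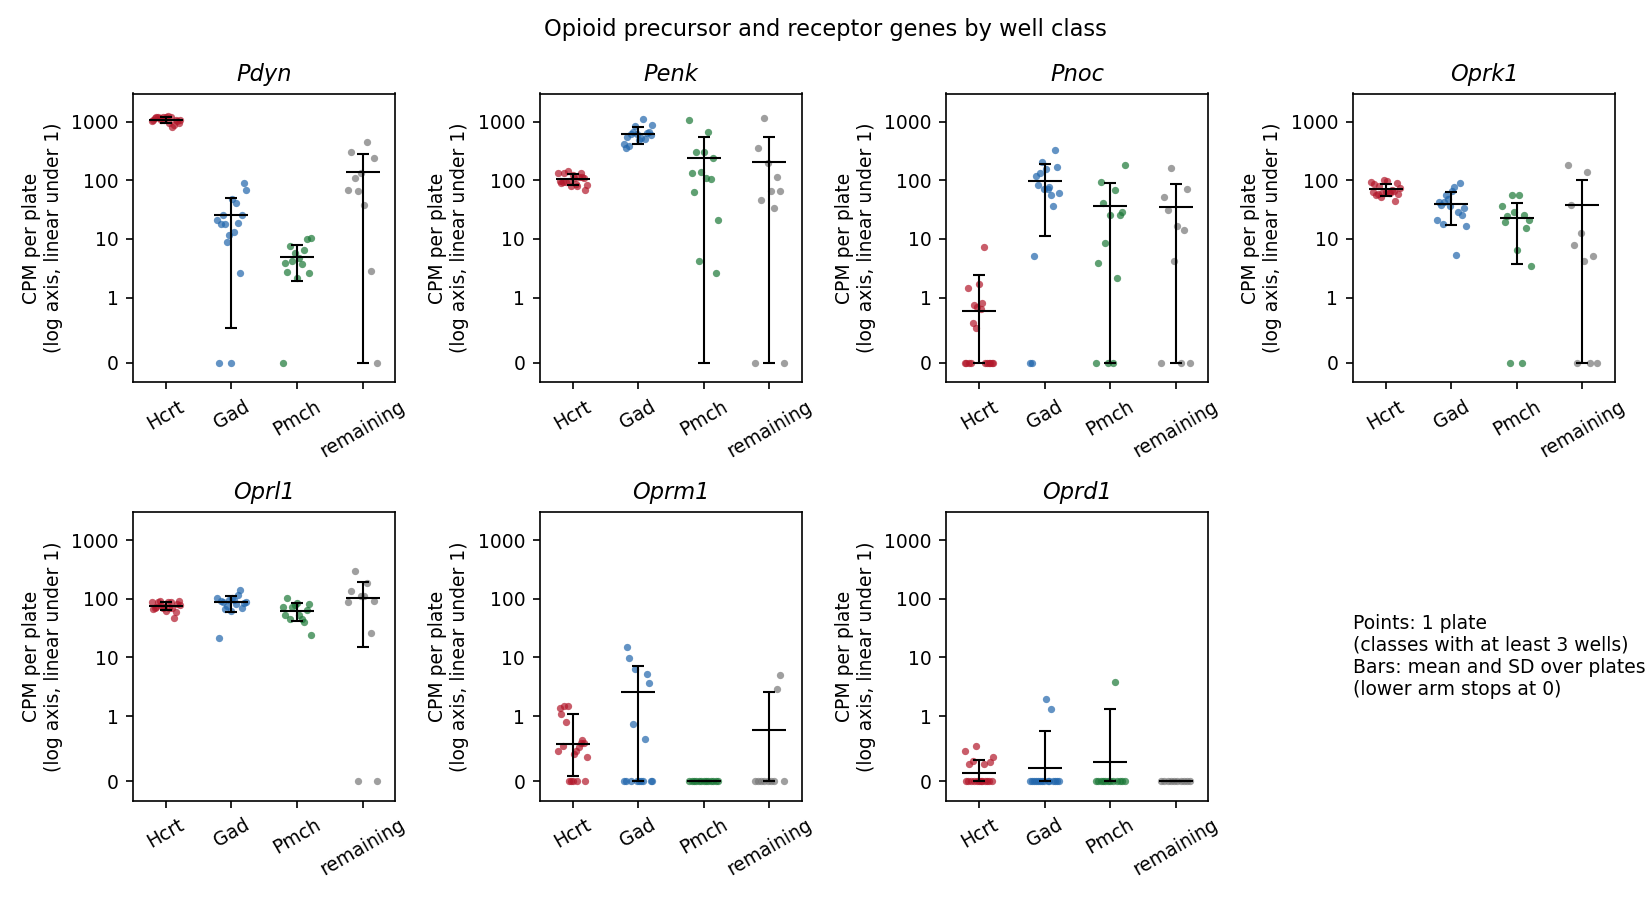
Level of each of the 7 genes in CPM (vertical axis, logarithmic above 1 and linear below) for Hcrt, Gad, Pmch and remaining wells. Each point is 1 plate with at least 3 wells of the class, bars are the mean and SD over plates, and the lower arm stops at 0. For Pdyn the Hcrt plates lie between 818 and 1260 CPM, above every plate of the other classes, and for Penk the Gad plates lie above every Hcrt plate.

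Almost every Hcrt well had Pdyn. A UMI was seen in 98.6% of the 1065 wells (95% Clopper-Pearson interval 97.7 to 99.2%) and in 98.6% after thinning, with a median of 47 UMIs and a maximum of 414 per well. The 15 Hcrt wells without a Pdyn UMI lay on 11 plates and were shallower, with a median of 17643 UMIs, against 45918 in the 1050 wells with one. Their median Hcrt share was 7.29%, against 13.6%. In 6 of the 15 Hcrt was under 5% of counts, and 11 had a Penk UMI.

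Outside Hcrt wells the share of wells with a Pdyn UMI was 25.1% in Gad (22.5% thinned), 38.0% in the remaining (33.9%) and 30.9% in Pmch wells (11.9%). Wells without a cell had a Pdyn UMI in 9.71% at their far lower depth, and qRNA wells in 14.7%. The ratio of Pdyn to Hcrt was used as a second measure of background, since free RNA of orexin neurons holds both. Per 100 Hcrt UMIs, Pmch wells had 0.242 Pdyn UMIs (exact Poisson interval 0.153 to 0.363), against 0.276 in wells without a cell (0.132 to 0.507) and 0.289 in qRNA wells (0.144 to 0.518). No Pdyn expression is read from the counts of Pmch wells. Gad wells had 1.25 (1.10 to 1.41) and remaining wells 6.01 (5.33 to 6.76), both above the wells without a cell, while Hcrt wells themselves had 0.818. These intervals, like the other intervals and limits for counts given here, cover counting error only. In the remaining wells the Pdyn counts were concentrated: 15 of 71 wells, on 12 plates, had at least 5 UMIs and held 92.4% of the class's Pdyn. Of these 15, 13 had a Slc17a6 UMI, and their highest Hcrt share was 0.894%, just under the limit that defines an Hcrt well. In Gad wells 18 of 327, on 8 plates, reached 5 UMIs and held 65.9% of the Pdyn.

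Penk ran the other way and was highest in Gad wells. Over 16 plates Hcrt wells had 68.1, 97.4 and 134 CPM as the lowest, median and highest plate, against 358, 600.2 and 1110 CPM in Gad wells. The ranges did not overlap and Hcrt wells were lower on all 16 plates. The mean was 101.8 ± 20.6 CPM in Hcrt wells and 614 ± 195 CPM in Gad wells (SD, n = 16 plates), a log2 change of -2.21 ± 0.15 (adjusted p = 6.98e-10, edgeR). Penk was still detected in 65.5% of Hcrt wells (54.7% thinned), against 66.7% of Gad wells (65.6% thinned). In qRNA wells, which had a median depth nearer to that of cells, a Penk UMI was found in 4.41%. Wells without a cell had 0 Penk UMIs, which allows up to 2.91% of such wells with a UMI, but they were too shallow for a comparison of levels.

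Penk in the remaining and Pmch wells was uneven between plates. The remaining wells had 0, 66.0 and 1149 CPM as lowest, median and highest of 10 plates, and the Pmch wells 2.61, 130.4 and 1068 CPM over 13 plates. Hcrt wells fell inside both ranges, with log2 changes of 0.33 ± 0.46 against the remaining wells (adjusted p = 0.779, edgeR; -0.025 without plate 19) and -0.63 ± 0.51 against Pmch wells (adjusted p = 0.392). The highest plate of the remaining wells was plate 5, where the class had 3 wells. Gad wells exceeded the remaining wells on 9 of 10 plates (587 ± 172 against 202 ± 349 CPM, SD), a log2 change of 2.39 ± 0.46 (adjusted p = 0.00692, edgeR). That made 1 of the 4 members tested called, higher, against 0.799% of 4633 genes, 0.648% higher and 0.151% lower. This call rests on plate 19, since without it the log2 change was 2.00 and the adjusted p 0.159. It was also lost without the plate block (1.83, adjusted p = 0.115) and with wells called neurons only (1.92, adjusted p = 0.241). In Pmch wells 9 of the 68, on 7 plates, had at least 20 Penk UMIs and held 79.4% of that class's Penk. In the order Gad, Pmch, remaining and Hcrt wells, the gap below Gad wells exceeded the spread over plates and the later gaps did not.

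Pnoc was nearly missing from Hcrt wells. All 1065 Hcrt wells together held 50 Pnoc UMIs in 14 wells (1.31%), and 1 well held 28 of them. Of Gad wells 27.8% had a Pnoc UMI, of Pmch wells 29.4% and of remaining wells 12.7%, while wells without a cell and qRNA wells had 0. By plate the lowest, median and highest values were 0, 0 and 7.32 CPM in Hcrt wells and 0, 74.2 and 333 CPM in Gad wells, and Hcrt wells were lower on 14 of 16 plates with the ranges touching at 0. Pnoc did not pass the filter on low counts in the comparisons with Hcrt wells, so it has no test there in the chosen design. Without the filter its log2 change between Hcrt and Gad wells was -6.30 (adjusted p = 1.32e-06, edgeR), a size that depends on how counts near 0 are treated. Gad wells held more than the remaining wells on 7 of 10 plates (98.8 ± 69.5 against 35.3 ± 51.2 CPM, SD), which did not pass the test (log2 change 1.78 ± 0.66, adjusted p = 0.386). That difference passed without the filter on low counts (2.01, adjusted p = 0.0174) and with the peptide limits at 5% (2.33, adjusted p = 0.0469). In the order Gad, Pmch, remaining and Hcrt wells no gap between neighbours exceeded the spread over plates.

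Oprk1, the dynorphin receptor, was highest in the class that was also highest for Pdyn. Hcrt wells had 55.5, 64.3 and 100.6 CPM as lowest, median and highest of 16 plates, against 5.25, 36.7 and 88.8 CPM in Gad wells. The ranges overlapped, with Hcrt wells higher on 14 of 16 plates (72.0 ± 15.7 against 40.03 ± 22.6 CPM, SD), and the log2 change was 1.31 ± 0.19 (adjusted p = 1.18e-07, edgeR). Hcrt wells were also higher than the remaining wells (71.6 ± 16.7 against 38.1 ± 64.4 CPM, higher on 8 of 10 plates, log2 change 2.46 ± 0.56, adjusted p = 0.00243). Against Pmch wells they were higher on 13 of 13 plates (71.9 ± 15.2 against 22.5 ± 18.7 CPM, log2 change 1.77 ± 0.30, adjusted p = 1.09e-05). In the remaining wells Oprk1 was uneven, with a median plate at 6.40 CPM and a highest at 178 CPM. A UMI was seen in 62.5% of Hcrt wells (49.2% thinned), against 28.4% of Gad (23.7%), 32.4% of Pmch (17.9%) and 15.5% of remaining wells (8.93%). Wells without a cell held 3 Oprk1 UMIs in all. In the order Hcrt, Gad, remaining and Pmch wells, the gap below Hcrt wells exceeded the spread over plates, with overlapping ranges, and the later gaps did not.

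Oprl1, the nociceptin receptor, was detected in all 4 classes at overlapping levels. The lowest, median and highest plates were 46.3, 72.5 and 91.6 CPM in Hcrt wells and 21.1, 87.6 and 140 CPM in Gad wells, and the ranges overlapped. The log2 change was 0.14 ± 0.14, with an interval of -0.13 to 0.41 (adjusted p = 0.451, edgeR), although Hcrt wells were lower in CPM on 11 of 16 plates. The sign follows the scale: it was -0.27 with library totals and 0.89 with ERCC totals, where it passed the test (adjusted p = 3.50e-07). Against the remaining wells (76.4 ± 8.96 against 104.4 ± 89.6 CPM) the log2 change was 0.24 ± 0.40 (adjusted p = 0.826), and against Pmch wells (79.2 ± 10.1 against 62.8 ± 21.7 CPM) it was 0.34 ± 0.17 (adjusted p = 0.143). After thinning, an Oprl1 UMI was seen in 59.7% of Hcrt, 58.9% of Gad, 56.7% of Pmch and 53.6% of remaining wells, and in no well without a cell. In the order remaining, Gad, Hcrt and Pmch wells no pair of neighbours differed by more than the spread over plates.

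The mu and delta receptors were hardly detected. Oprm1 had 31 UMIs in 25 Hcrt wells (2.35%), 28 UMIs in 10 Gad wells (3.06%), 2 UMIs in the remaining wells and 0 in 68 Pmch wells, which allows up to 4.41% of wells with a captured UMI and sets no limit on cells that express the gene. Oprd1 had 7 UMIs in 7 Hcrt wells, 3 in Gad wells, 1 in Pmch wells and 0 in 71 remaining wells, which in the same sense allows up to 4.23%. Wells without a cell held 1 Oprm1 UMI and qRNA wells 1 Oprd1 UMI. Neither gene passed the filter on low counts in any comparison. Over all wells of a class Oprm1 came to 0.577 CPM in Hcrt and 3.03 CPM in Gad wells. Without the filter its log2 change between these classes was -1.46 ± 0.81 (adjusted p = 0.349, edgeR), which did not pass the test.

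**Figure D2:**
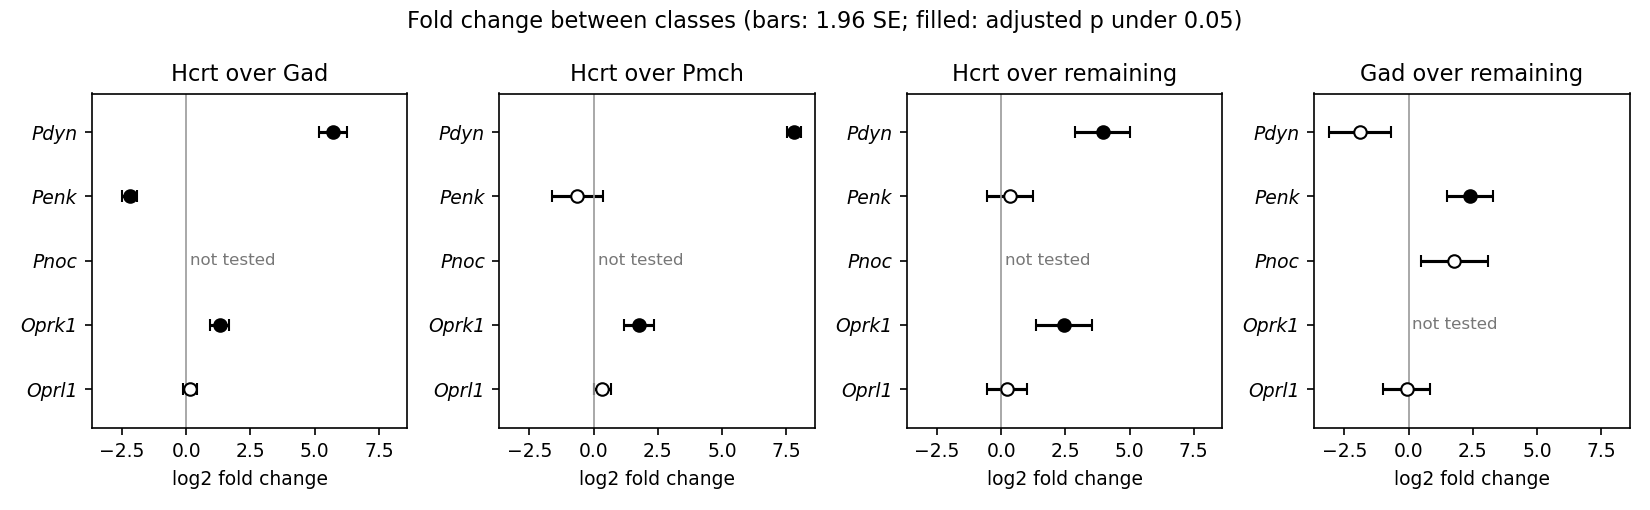
Fitted log2 change of Pdyn, Penk, Pnoc, Oprk1 and Oprl1 in 4 class comparisons (horizontal axis; points are estimates and bars 95% intervals from the SE). Filled points have an adjusted p under 0.05 by edgeR's quasi-likelihood test, and genes under the filter on low counts are marked as not tested. Pdyn and Oprk1 lie to the right of 0 in all 3 comparisons of Hcrt wells, while Penk lies left of 0 against Gad wells at -2.21.

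The enzymes that cut and package peptide precursors were mostly higher in Hcrt wells than in Gad wells. Of 8 such genes 7 were tested, 6 rose and 0 fell, and the median log2 change was 0.96, against 0.03 over all genes tested, of which 21.7% were called higher and 17.2% lower. Pcsk1, a convertase that cuts precursors at paired basic residues, was at 577 ± 65.2 CPM in Hcrt wells and 82.0 ± 45.6 CPM in Gad wells (SD, n = 16 plates), a log2 change of 3.47 ± 0.18 (adjusted p = 2.05e-11, edgeR). Pcsk2, the convertase that trims prodynorphin further, was at 160 ± 20.7 against 48.5 ± 32.7 CPM, a log2 change of 2.28 ± 0.23. Pam, which amidates peptide ends, was at 478 ± 128 against 246 ± 95.4 CPM, a log2 change of 1.396 ± 0.08. Each of these was higher in Hcrt wells on 16 of 16 plates. The convertases did not keep this order against every class: against Pmch wells Pcsk1 was higher in Hcrt wells (5.56 ± 0.31) and Pcsk2 lower (-2.64 ± 0.09). The list gave 3 higher and 2 lower there, where 17.5% of all genes were called higher and 13.2% lower. Its other called genes were Pam (1.10 ± 0.10), Pcsk1n (0.25 ± 0.06, which turned to -0.30 with ERCC totals) and Cpe (-0.31 ± 0.08). Against the remaining wells 2 of 7 were higher, Pcsk1 (3.35 ± 0.32) and Pam (1.61 ± 0.25), where 6.27% of all genes were called higher and 0.702% lower. Between Gad and remaining wells Pcsk2 was lower (-1.99 ± 0.40, adjusted p = 0.00951, edgeR) and no other of the list was called, where 0.648% of all genes were called higher and 0.151% lower. The genes of these 3 comparisons were named after their values were seen.

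Genes for the breakdown of opioid peptides moved little. Of 12 on the list 7 were tested between Hcrt and Gad wells, 0 rose and 1 fell, with a median of 0.02. Over all genes tested the median was 0.03, and 21.7% were called higher and 17.2% lower. The gene that fell was Ece2, an endothelin-converting enzyme that also cleaves opioid peptides, at 52.1 ± 11.02 CPM in Hcrt and 99.99 ± 29.7 CPM in Gad wells (log2 change -0.53 ± 0.13, adjusted p = 9.21e-04, edgeR). With ERCC totals as the scale its sign turned to 0.21.

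Genes through which opioid receptors signal or are switched off were split. Of 35 on the list 28 were tested between Hcrt and Gad wells, 7 rose and 11 fell, with a median of -0.12. Over all genes 21.7% were called higher and 17.2% lower, so the share of the list that rose is near that of all genes. The share that fell, 11 of 28, is larger than that of all genes, though some of these genes turned sign with ERCC totals, as given below. The adenylyl cyclase genes of the list went in both directions. Adcy8 was at 38.8 ± 9.24 CPM in Hcrt and 2.29 ± 4.52 CPM in Gad wells (log2 change 4.41 ± 0.36). Adcy2 was at 1.15 ± 0.81 against 40.6 ± 28.4 CPM (-4.51 ± 0.40), and Adcy9 had a log2 change of -1.46 ± 0.36. The regulator of G protein signalling Rgs20 (1.23 ± 0.27) and the Gi subunit Gnai2 (0.81 ± 0.08) were higher in Hcrt wells. Arrb1, an arrestin that ends receptor signalling, was lower, at 23.4 ± 6.49 CPM in Hcrt and 90.5 ± 68.0 CPM in Gad wells (-1.38 ± 0.21). The Adcy9 call was lost with ERCC totals (-0.72, adjusted p = 0.0702) and the Rgs20 call with the peptide limits at 0.2% (0.91, adjusted p = 0.0820). Of the other coupling genes called, Gnaz turned to -0.12 with library totals, and Gnao1, Cacna1a, Cacna1b and Arrb2 turned to 0.33, 0.12, 0.35 and 0.05 with ERCC totals. Against the remaining wells 3 of 24 coupling genes tested were higher in Hcrt wells, Adcy8 (2.12 ± 0.60), Gng2 (1.08 ± 0.32) and Gnai2 (0.84 ± 0.24), and Arrb1 was lower (-1.45 ± 0.45), named after their values were seen. Over all genes of that comparison 6.27% were called higher and 0.702% lower. Against Pmch wells 8 of 24 were higher and 4 lower, where 17.5% of all genes were called higher and 13.2% lower.

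Within Hcrt wells, those with more Hcrt had more Pdyn. On each plate the wells were split at the plate's median Hcrt share, giving 528 wells above (median share 15.6%) and 537 below (11.7%), and levels were taken as CPM of the counts apart from Hcrt. Pdyn then had 1014, 1368 and 1536 such CPM as the lowest, median and highest plate in Hcrt-high wells, against 819, 1126 and 1428 in Hcrt-low wells. The ranges overlapped between plates, but within a plate the Hcrt-high wells were higher on 18 of 19. The mean was 1351 ± 142 in Hcrt-high and 1129 ± 163 in Hcrt-low wells (SD, n = 19 plates), a log2 change of 0.31 ± 0.04, or 1.24-fold (adjusted p = 3.54e-07, edgeR with the Hcrt row left out). Pdyn was the 1 member called of 4 tested, against 2.13% of 8743 genes, 1.59% higher and 0.538% lower. The Hcrt-high wells were deeper, with a median of 41780 UMIs apart from Hcrt, against 36237 in the Hcrt-low wells. With wells thinned to equal depth the log2 change was 0.28 ± 0.04 (adjusted p = 4.67e-07, edgeR), and the within-plate rank correlation of Pdyn with the Hcrt share was positive on 17 of 19 plates.

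No other member passed the test between Hcrt-high and Hcrt-low wells. Oprk1 was at 82.2 ± 23.1 CPM apart from Hcrt in Hcrt-high and 79.3 ± 25.9 in Hcrt-low wells, higher on 9 of 19 plates (log2 change 0.13 ± 0.11, interval -0.08 to 0.34, adjusted p = 0.705, edgeR). Penk was at 110 ± 34.8 in Hcrt-high and 131 ± 47.2 in Hcrt-low wells (-0.19 ± 0.17, adjusted p = 0.719), and Oprl1 at 81.7 ± 13.7 and 92.0 ± 25.02 (-0.09 ± 0.10, adjusted p = 0.793). With the peptide limits at 0.2% the Penk difference passed the test (-0.86, adjusted p = 0.0128). Of the peptide-processing genes 5 of 7 were called higher in Hcrt-high wells and 0 lower, with a median log2 change of 0.16. Over all genes the median was 0.00, and 1.59% were called higher and 0.538% lower. The 5 peptide-processing genes were Pcsk1 (0.32 ± 0.04, adjusted p = 3.56e-06, edgeR), Pcsk1n, an inhibitor of that convertase (0.20 ± 0.03), Pam (0.19 ± 0.05), the cathepsin Ctsl (0.16 ± 0.04) and the carboxypeptidase Cpe (0.14 ± 0.04), named after their values were seen.

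From cell to cell the relation of Pdyn with Hcrt was positive and loose. In 969 Hcrt wells thinned to 18000 UMIs apart from Hcrt and Pmch, Spearman's rho between Pdyn and the Hcrt share was computed within each of the 19 plates. The median rho was 0.190, with a range of -0.146 to 0.496, and 17 plates were positive. These are descriptions over cells that share a library and, within it, a depth limit, and no p is given. With each plate's wells put into 4 equal sets by Hcrt share, from low to high with median shares of 10.4, 13.1, 14.8 and 16.6%, Pdyn averaged 19.9 ± 4.69, 21.8 ± 3.66, 23.2 ± 3.77 and 26.1 ± 5.54 UMIs per 18000 (SD over 19 plates), a rise with each step that is smaller than the spread over plates. Oprk1 over the same sets was 1.59 ± 0.690, 1.60 ± 0.741, 1.47 ± 0.741 and 1.62 ± 0.645.

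**Figure D3:**
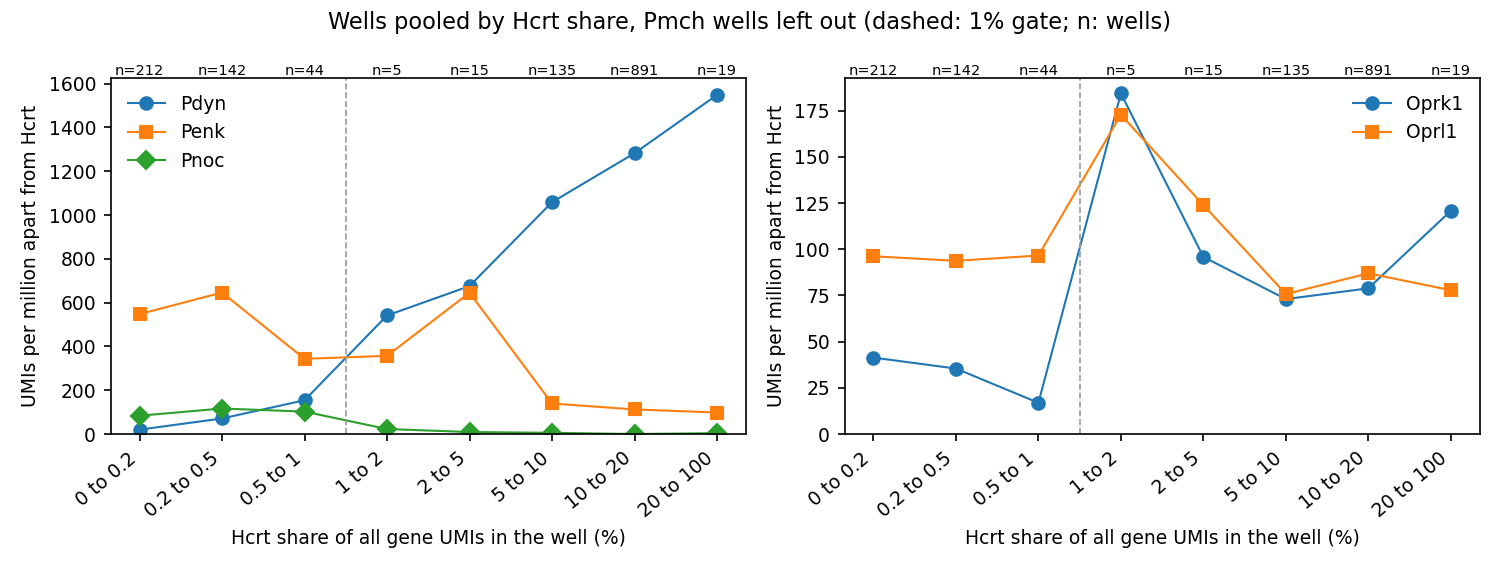
Levels in CPM apart from Hcrt (vertical axes, linear from 0) of the 3 precursors (left) and of Oprk1 and Oprl1 (right) over bins of the well's Hcrt share (horizontal axis), summed over the wells of each bin, with the number of wells as n and the 1% limit dashed. Pmch wells and wells past both limits are left out. Pdyn is at 20.2 in the lowest bin and 1548 in the highest, while Pnoc is at 83.8 in the lowest bin and 4.10 in the highest.

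Across all non-Pmch wells the step in Pdyn lay at the Hcrt shares where few wells fall. In the 212 wells with an Hcrt share under 0.2%, Pdyn was at 20.2 CPM apart from Hcrt, in the 142 wells from 0.2 to 0.5% at 71.2 and in the 44 wells from 0.5 to 1% at 154. It stood at 541 in the 5 wells from 1 to 2%, 676 in the 15 wells from 2 to 5%, 1058 in the 135 wells from 5 to 10%, 1282 in the 891 wells from 10 to 20% and 1548 in the 19 wells above. The bins from 1 to 2% and from 2 to 5% hold under 20 wells each, as does the highest. Penk was at 547, 646 and 343 in the 3 bins under 1% and at 139.5, 112.4 and 98.3 in the bins above 5%. In the 5 wells from 1 to 2% it was at 357 and in the 15 wells from 2 to 5% at 645. The latter bin had a Penk UMI in 46.7% of wells and a median of 0. Of all Hcrt wells with a share under 5%, 2 had at least 20 Penk UMIs, so few wells set these levels. No step in Penk at 5% is read from them. Oprk1 was at 41.4, 35.4 and 16.9 in the 3 bins under 1% and at 95.8, 73.0, 78.8 and 121 in the bins above 2%, with 184 in the 5 wells between. Pnoc was at 83.8 to 116.6 in the bins under 1% and at 0.13 in the bin of 891 wells.

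Hcrt wells with an Oprk1 UMI held more Pdyn than those without. Of the 969 thinned wells 511 had an Oprk1 UMI and 458 had none. Per 18000 UMIs apart from Hcrt and Pmch, Pdyn had 18.5, 24.4 and 33.2 as the lowest, median and highest plate mean in wells with Oprk1, against 11.9, 20.7 and 24.8 in wells without. The ranges overlapped, and wells with Oprk1 were higher on 17 of 19 plates. The mean was 24.6 ± 3.91 with and 20.3 ± 3.29 without (SD, n = 19 plates), a log2 change of 0.27 ± 0.04, or 1.20-fold (adjusted p = 2.57e-05, edgeR with the Oprk1, Hcrt and Pmch rows left out). Among the other members tested, Penk (-0.06 ± 0.21, adjusted p = 0.951) and Oprl1 (0.10 ± 0.11, adjusted p = 0.766) were not called, and Pdyn was the 1 call, against 3.82% of 6119 genes called, 1.81% higher and 2.01% lower. The Hcrt share was alike in the pair of sets, with medians of 13.4% with and 13.8% without.

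Depth before thinning differed between these sets, with a median of 38891 UMIs apart from Hcrt and Pmch in wells with Oprk1, against 44972.5 in wells without. Among the deeper wells of each plate Pdyn was at 23.9 ± 3.24 with Oprk1 (219 wells) and 19.3 ± 3.18 without (259 wells), higher on 17 of 19 plates. Among the shallower wells it was at 25.1 ± 5.58 with (292 wells) and 21.8 ± 4.24 without (199 wells), higher on 13 of 19. The mean was higher with Oprk1 at both depths. As a rank correlation, Pdyn and Oprk1 had a median within-plate rho of 0.210 (range -0.104 to 0.555, positive on 17 of 19 plates), while the Hcrt share and Oprk1 had -0.004 (range -0.262 to 0.204, positive on 9). Even after thinning Pdyn had a rho of -0.161 with the depth before thinning, and Oprk1 one of -0.182, so both relate to depth in the same direction. The 2 genes of the other lists called between the Oprk1 sets, apart from Pam (-0.33 ± 0.05, adjusted p = 8.39e-07), were Gnai1 (0.34 ± 0.10, adjusted p = 0.0303) and Rgs4 (-0.57 ± 0.12, adjusted p = 0.00132), named after their values were seen.

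**Figure D4:**
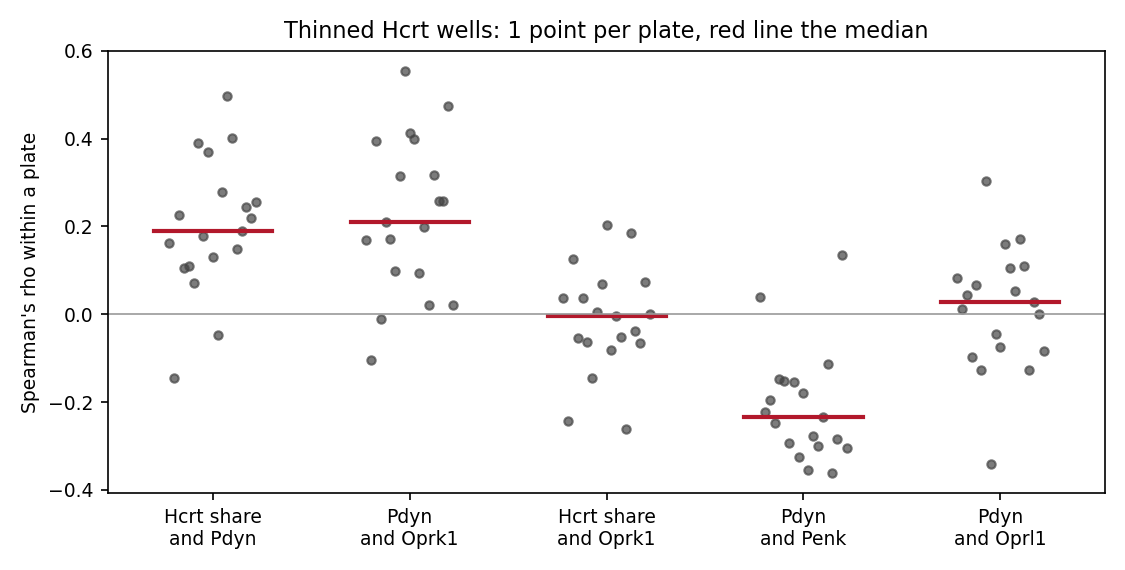
Spearman's rho within each of 19 plates for 5 pairs of measures in thinned Hcrt wells, 1 point per plate with the median marked. Pdyn with the Hcrt share and Pdyn with Oprk1 are positive on 17 plates each, the Hcrt share with Oprk1 is spread around 0, and Pdyn with Penk is positive on 2 plates.

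Penk and Pdyn leaned apart within Hcrt wells. The median within-plate rho was -0.234 (range -0.362 to 0.134, positive on 2 of 19 plates). Pdyn was at 20.4 ± 2.81 in the 531 wells with a Penk UMI and at 25.5 ± 4.24 in the 438 wells without, lower with Penk on 17 of 19 plates. This split was chosen after its values were seen and has no test. The median Pdyn count per well was 25 with no Penk UMI (438 wells), 20 with 1 to 2 (246 wells), 18 with 3 to 5 (167 wells), 18 with 6 to 10 (90 wells) and 16 with at least 11 (28 wells). Among deeper wells Pdyn was at 20.3 with and 22.8 without a Penk UMI, lower on 14 of 19 plates, and among shallower wells at 20.6 and 28.3, lower on 18. The 155 Hcrt wells with at least 5 Gad1 and Gad2 UMIs had less Pdyn than the other 910 (858 against 1136 CPM). They also had more Penk (153 against 93.6 CPM) and more Pnoc (3.67 against 0.255 CPM), though most of that Pnoc came from 1 well with 28 UMIs. The 155 wells were deeper, with a median of 58186 UMIs, against 41965 in the other 910, and the limit of 5 UMIs was not scaled by depth. Whether a second cell or its RNA had a part in the relation of Penk with Pdyn was not tested.

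**Figure D5:**
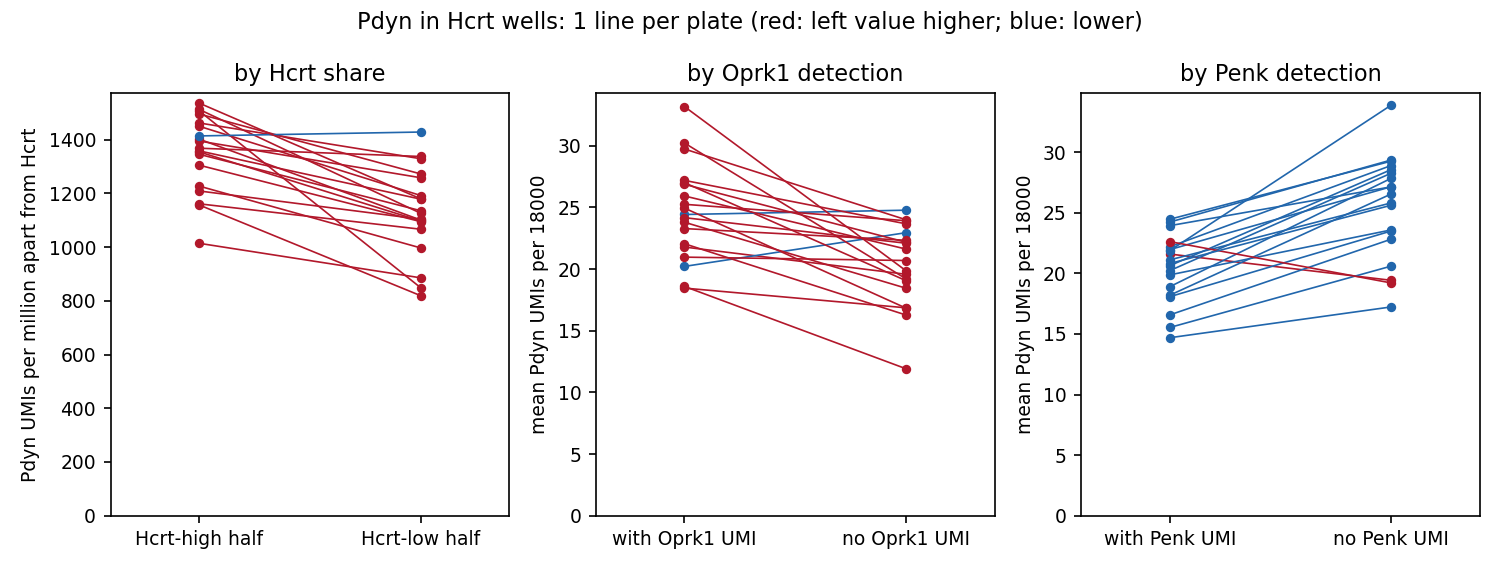
Pdyn level (vertical axis) on each of 19 plates in pairs of Hcrt well sets, 1 line per plate: left panel, Hcrt-high and Hcrt-low wells in CPM apart from Hcrt; middle and right panels, wells with and without an Oprk1 or a Penk UMI, as mean UMIs per 18000 in thinned wells. Red lines are higher at the left end and blue lines lower: Pdyn is higher in Hcrt-high wells on 18 plates, higher in wells with an Oprk1 UMI on 17 and lower in wells with a Penk UMI on 17.

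Penk had the highest ratio of variance to mean of the 7 genes over Hcrt wells, a rank that rests in large part on its highest well. That well held 125 Penk UMIs after thinning, where the 90th percentile was 6, and no ratio was computed without that well. The variance of Penk was 11.5 times its mean in thinned wells, against 10.5 for Pnoc, whose counts came mostly from 1 well. It was 6.75 times the mean for Pdyn, 3.19 times for Oprk1 and 2.07 times for Oprl1. The 10% of wells with most Penk held 48.6% of its UMIs. Wells with at least 20 Penk UMIs numbered 59, on 16 plates, and were deeper, with a median of 66723 UMIs, against 43988.5 in the other 1006 Hcrt wells. At least 5 Gad1 and Gad2 UMIs were found in 37.3% of the 59, against 13.2% of the others. The 59 wells also held more Nts, the neurotensin precursor (248 against 150 CPM apart from Hcrt), and more Cartpt, the precursor of CART peptides (102.1 against 31.6), and less Pdyn (1098 against 1260). Nts and Cartpt were chosen after values were seen. Whether a second cell or its RNA had a part in these wells was not tested.

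The genes whose counts moved most like Pdyn from well to well were named by the mean within-plate rho over the same 969 wells and 5599 candidate genes, whose median was -0.005. They were Calb1 (0.449) and Calb2 (0.376), which encode the calcium-binding proteins calbindin and calretinin, Fos, an activity-induced transcription factor (0.343), and Rprm (0.337), each positive on 19 of 19 plates. On that scale Oprk1 ranked 23, the Hcrt share 32 and Penk 5585. The genes most like Oprk1 included some of these, namely Calb2 (0.382), Chst8 (0.336), Rprm (0.328) and Calb1 (0.296), and Pdyn ranked 15.

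In Gad wells the sets rich in Penk and in Pnoc overlapped in part. Of the 327 wells 173, on 19 plates, had at least 5 Penk UMIs and 47, on 14 plates, had at least 5 Pnoc UMIs, with 12 wells in both sets, 35 with only Pnoc at that level and 119 wells under 5 UMIs of either. Penk wells had 1096 CPM of Penk, with 3886 CPM of Nts and 6221 CPM of Cartpt, against 1962 and 2285 CPM in the 119 wells. Pnoc wells had 689 CPM of Pnoc, 337 CPM of Penk and 256 CPM of Calb2, a gene at 81.2 CPM in the 119 wells. After thinning, a Pnoc UMI was found in 18.1% of wells with Penk, against 34.1% of wells without, and 31 of the 59 wells with a Pnoc UMI (52.5%) also had a Penk UMI. An Oprk1 UMI was found in 22.8% of wells with Penk, against 10.98% of wells without. These shares after thinning come from a separate random draw of the Gad wells. In that draw 48 of the 253 wells had an Oprk1 UMI, against 60 in the draw behind the class shares given earlier. No test of the shares in this paragraph was made.

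Over the 253 thinned Gad wells, pooled over plates because few plates hold many of them, the genes of 6784 candidates most like Penk were Nts (rho 0.490), Asb4 (0.453), the metallothionein Mt2 (0.420) and Pcp4 (0.417). Pnoc was near the other end of that order, at rank 6666 with a rho of -0.170. Most like Pnoc were Calb2 (0.442), Spock1 (0.287), Col11a1, a collagen chain (0.267), and Lypd1 (0.262). In Gad wells the variance was 25.8 times the mean for Penk and 20.6 times for Pnoc, both above the values for the members in Hcrt wells.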

How the data were processed

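The table of the whole series holds counts per gene and well that the authors deposited, from 19 plates. Per the submitters' processing notes, bcl2fastq 2.20, cutadapt 2.1.0, STAR and STARsolo 2.7.5c, Seurat 2.3.4, R 3.4.3 and the build GRCm38 were used. How molecular identifiers were collapsed, the annotation and the use of strand are not given in the sources used here, and the counts are called UMIs from the library design. Well labels, such as LHA, and the number of detected genes were taken from the deposited annotation of wells, per the file headers, while the percent of ERCC counts per well that the authors deposited was not used. Of the identifiers, 52403 (99.6%) were found in GENCODE M21, which gave loci and coding sequences.

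Hcrt and Pmch shares were computed from the deposited counts. No doublet caller was run, because wells were filled by hand, and the 3 wells past both peptide limits were left out. Counts were summed per plate and class (at least 3 wells) and tested with edgeR 4.0.16 (filterByExpr, TMM, robust quasi-likelihood fit) in R 4.3.3 with the plate as a block, since the classes compared come from the same plates. Plates are the replicates and cells are not. Thinning drew 18000 UMIs per well without replacement. Intervals of shares and counts are exact at the 95% level, and those of log2 changes are approximate 95% intervals from the SE. A count of 0 was given the limit of 3 counts. On simulated counts with the fit of Hcrt against Gad wells (9271 genes), 78.0% of genes changed 2-fold and 100% of those changed 4-fold were recovered, with 0.066% false calls. For Hcrt-high against Hcrt-low wells (8743 genes) the shares were 95.0% and 100%, with 0.047% false calls. The simulated counts had no plate effect and no shared mice, and 100 genes were changed at each size, equally up and down. These shares therefore give no rate of false calls for the real counts, where many more genes differ between Hcrt and Gad wells.

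The 7 genes and the pathway lists were chosen with earlier results of these data known. Beside the 7 genes, the text names up to 3 genes higher and 3 lower per list in Hcrt against Gad wells and the 4 genes most like Pdyn and Oprk1 (Hcrt wells) and Penk and Pnoc (Gad wells), and says where others were named after their values were seen. Alternatives changed the scaling (RLE, library totals, ERCC totals), the tool (DESeq2 1.42.0), the filter, the block, the limits that define the classes, the wells used and the plates, each left out in turn.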

Additional observations from a re-analysis of the deposited data

Results flagged for a closer look

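In the remaining wells Penk was at 1149 CPM on plate 5, where the next highest plate had 349 CPM, and Pnoc was at 164 CPM on that plate, where the next highest had 70.6 CPM. Both stood far from the other 9 plates of the class, and the plate holds 3 remaining wells. The values there rest on 35 Penk and 5 Pnoc UMIs, each found in 33.3% of those wells. This check was made for 6 genes in this class. Chance alone would set apart about 1 in 20 if plate values followed a normal distribution, which skewed values with zeros do not.

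A well labelled Empty on plate 15 held 100707 UMIs from 5682 genes, with 48 Penk UMIs, 22 of Gad1, 45 of Gad2, 12 of Slc32a1 and 159 of Hcrt. It enters no comparison.

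Pdyn UMIs were found in wells that no comparison uses: 10 in wells without a cell, 11 in qRNA wells and 15 in LHA wells under the limit of 1000 genes. Per 100 Hcrt UMIs these came to 0.276, 0.289 and 0.494, against 0.818 in Hcrt wells.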

How the results depend on the processing

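Of the values that answer a comparison, 92 kept their direction and their side of the threshold under other settings and 10 did not, where a count of called genes within 1.5 times of its value in the chosen design is taken as kept. By the same measure none was lost with a plate left out. The count of opioid genes called in Hcrt against remaining wells, 2, became 4 with ERCC totals, 1 with at least 5 wells per plate and class and 1 with peptide limits at 0.2%. That in Gad against remaining wells, 1, became 2 with DESeq2, without the filter on low counts, with limits at 5% and in a single fit over 4 classes. The classes of a plate are paired by the plate, and without this replicate block that count was 0. The rank correlation of Pdyn with Hcrt was 0.444 per ERCC count, where the 2 measures share a denominator. Oprk1 in Hcrt-high against Hcrt-low wells turned to -0.012 in thinned wells. With plates left out in turn, counts ranged from 3 to 4 (Hcrt against Gad), 2 to 2 (Pmch and, added after the data were seen, remaining) and 1 to 1 (Gad against remaining, where without plate 19 the gene called was Pdyn in place of Penk), and log2 changes from 0.28 to 0.32 (Pdyn, Hcrt-high against low), 0.06 to 0.16 (Oprk1) and 0.24 to 0.29 (Pdyn, Oprk1 sets).

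Apart from Ece2 and the list genes named above as turning, no single gene that turned sign was called in the chosen design. Penk in Hcrt against remaining wells ranged from -0.025 (without plate 19) to 0.67 (without plate 5) with plates left out, and turned to -0.19 with library totals, -0.22 with at least 5 wells, -0.25 without the plate block, -0.50 with a Gad limit of 10, -0.057 with neurons only and -0.17 in 1 fit. Oprl1 there ranged from -0.063 (without plate 19) to 0.49 (without plate 4), and turned to -0.27 with library totals, -0.044 without the block, -0.17 with neurons only, -0.019 with RLE and -0.28 with limits at 0.2%. Oprl1 was -0.27 against Gad wells with library totals and -0.21 against Pmch wells with ERCC totals. In Gad against remaining wells it was 0.023 with ERCC totals, 0.13 without the filter, 0.026 with at least 5 wells, 0.090 thinned and -0.34 to 0.16 with plates left out. Penk between the Oprk1 sets was 0.33 without thinning, 0.074 with limits at 5% and -0.13 to 0.062 with plates left out. Ece2 was 0.21 with ERCC totals. Pdyn in Gad against remaining wells, not called in the chosen design, was called without plate 19 (-2.29, adjusted p = 0.00445), with DESeq2 (-1.94), with neurons only (-2.37) and in 1 fit (-2.03). Calls over all genes ranged over the settings from 2171 to 6881 (Hcrt against Gad, 3612 in the chosen design), 1311 to 3705 (Pmch, 2388), 17 to 481 (Gad against remaining, 37), 19 to 996 (Hcrt-high against low, 186, with 19 without the block) and 80 to 324 (Oprk1 sets, 234, with 80 without the block), and in Hcrt against remaining wells (527) reached 3925 with ERCC totals and fell to 95 higher and 17 lower in thinned wells. The cause of these changes was not tested. In thin classes, such as the remaining wells with 71 cells, depth and well number limit every value.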
